A study of Mus musculus with 2 samples.

Results

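Cycling alveolar epithelial cells are lung cells that carried RNA of surfactant protein C (Sftpc), the secreted product that marks alveolar type 2 (AT2) cells, together with RNA of genes used in cell division. The cells were selected on their own counts. A barcode was taken when it held at least 1 UMI (a unique molecular identifier, which counts 1 captured RNA molecule) of 3 or more of the 7 genes Mki67, Top2a, Birc5, Cenpf, Ube2c, Prc1 and Cdk1, when Sftpc made up 3% or more of its UMIs, and when it had 0 UMIs of Ptprc, Pecam1 and Col1a2, which mark immune, endothelial and mesenchymal cells. In all, 181 cells of 45824 kept barcodes met the rule, 13 of 30187 in the Pclaf WT library and 168 of 15637 in the library labelled Pclaf KO. The 525 WT and 6013 KO-labelled cells with the same Sftpc level, none of the 3 excluded genes and 0 UMIs of the 7 genes served as non-cycling cells.

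The study asked what loss of Pclaf, a PCNA-binding protein of dividing cells, does to lung repair after bleomycin, a drug that breaks DNA and injures the alveoli. Lungs of Pclaf WT and Pclaf KO mice aged 8 to 10 weeks were taken 1 week after bleomycin, at 1.35 U/kg in the deposited design, was instilled into the lung. Epithelial cells were sorted as Cd31-/Cd45-/Epcam+ and run on a droplet platform that reads the 3' ends of transcripts, with 1 library per genotype and bleomycin in both. The KO mice came from an existing line whose allele the labels do not describe, how many animals went into each library is not stated, and no library from uninjured lungs was analysed here. With 1 library per genotype there was no replicate check, so no test between genotypes or between cells was possible. Intervals below are exact 95% intervals, or for differences of shares Newcombe intervals from Wilson limits, and cover counting error only, and a gene was called higher or lower in a comparison when its level differed at least 2-fold.

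AT2 cells make and store surfactant and also act as the stem cells of the alveolus: after injury some of them divide, and their daughters stay AT2 cells or flatten into the alveolar type 1 (AT1) cells that exchange gas. A dividing cell copies its DNA in S phase and separates the copies in G2 and M phase. The genes for both steps are silenced in resting cells by the DREAM complex, which holds E2F4 or E2F5 at E2F sites in the promoters of replication genes and LIN54 at CHR elements in the promoters of mitosis genes. In cycling cells the complex gives way to activating E2F proteins and to MYBL2 and FOXM1.

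The promoters of the genes of the rule were searched for the letters of both kinds of site. They were read from RefSeq (GRCm38.p6), in windows from 250 bases before to 50 bases after each transcription start, and 16 of 17 genes of the rule and Pclaf had an entry. The words searched on both strands were TTTGAA and TTTAAA for the CHR element, and TTTCCCGC, TTTCGCGC, TTTGCCGC and TTTGGCGC for the E2F site. A CHR word lay in the window of all 7 genes that chose the cells and of both genes that marked G2/M (Cdc20 and Ccnb1), against 30.6% of all 27025 genes and 27.6% of all 32851 promoters. It lay in 30 of 43 genes (69.8%) of a list of 53 mitosis genes not used in the rule, and in 8 of 27 (29.6%) of a list of 41 replication genes not used in it. An E2F word lay in 4 of the 6 S-phase genes of the rule with an entry, in 9 of 27 replication genes (33.3%) and in 2 of 43 mitosis genes (4.65%), against 2.6% of all genes and 2.26% of all promoters. It lay in 1 of the 7 genes that chose the cells and in 0 of the 2 G2/M genes. No E2F word lay in the promoters of 12 AT2 genes, of which 5 had a CHR word. Matches of such short words are a description and not binding sites. The 120 bases before the start of 8 of these genes follow, 5' to 3', with CHR words in capitals in the first 7 and E2F words in capitals in Mcm6, where matches on both strands overlap in the first stretch. Genes that chose the cells or marked G2/M were picked when a CHR word lies within these 120 bases, and S-phase genes when an E2F word does. Birc5 and Cenpf, whose CHR words lie outside them, Mcm3, Mcm5 and Mcm7, whose E2F words do, and Mcm2 and Pcna, which had no E2F word, are not shown. A CHR word lay in 2 of the 6 S-phase genes, Mcm5 and Mcm2, and that of Mcm2 lies within these 120 bases.
Mki67, chr7:135716380-135716499, minus strand: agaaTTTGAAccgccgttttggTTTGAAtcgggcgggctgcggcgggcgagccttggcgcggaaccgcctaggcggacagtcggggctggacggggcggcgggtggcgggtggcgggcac
Top2a, chr11:99024190-99024309, minus strand: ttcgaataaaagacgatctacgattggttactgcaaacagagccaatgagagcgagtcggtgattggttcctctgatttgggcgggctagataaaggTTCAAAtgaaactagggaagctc
Ube2c, chr2:164769809-164769928, plus strand: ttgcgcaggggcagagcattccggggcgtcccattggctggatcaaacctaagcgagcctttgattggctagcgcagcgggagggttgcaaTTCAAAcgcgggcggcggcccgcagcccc
Prc1, chr7:80294356-80294475, plus strand: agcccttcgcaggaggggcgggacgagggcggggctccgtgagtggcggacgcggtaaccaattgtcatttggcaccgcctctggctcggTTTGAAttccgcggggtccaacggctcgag
Cdk1, chr10:69352913-69353032, minus strand: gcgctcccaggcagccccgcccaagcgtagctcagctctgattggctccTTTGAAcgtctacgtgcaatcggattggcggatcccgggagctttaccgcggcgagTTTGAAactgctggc
Cdc20, chr4:118437344-118437463, minus strand: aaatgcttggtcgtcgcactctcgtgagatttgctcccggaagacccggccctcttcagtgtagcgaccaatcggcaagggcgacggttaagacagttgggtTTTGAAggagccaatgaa
Ccnb1, chr13:100786487-100786606, minus strand: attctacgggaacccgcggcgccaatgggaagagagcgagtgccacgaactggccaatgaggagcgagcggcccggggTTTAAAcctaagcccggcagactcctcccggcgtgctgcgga
Mcm6, chr1:128359706-128359825, minus strand: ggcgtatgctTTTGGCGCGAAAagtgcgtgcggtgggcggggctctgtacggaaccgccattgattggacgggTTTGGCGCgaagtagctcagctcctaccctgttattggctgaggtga

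The 7 genes were detected in steps. Of 594 Sftpc-high WT cells, 525 had none, 50 had 1, 6 had 2 and 13 had 3 or more. Of 6829 such cells in the KO-labelled library, 6013 had none, 546 had 1, 102 had 2 and 168 had 3 or more, among them 32 with all 7. Just inside the threshold were 3 and 59 cells with exactly 3 genes, and just outside it 6 and 102 cells with 2. The threshold on Sftpc touched fewer cells, since 2 and 1 cells with 3 or more of the genes lay at 2 to 3% Sftpc and 0 and 4 at 3 to 4%.

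**Figure D1:**
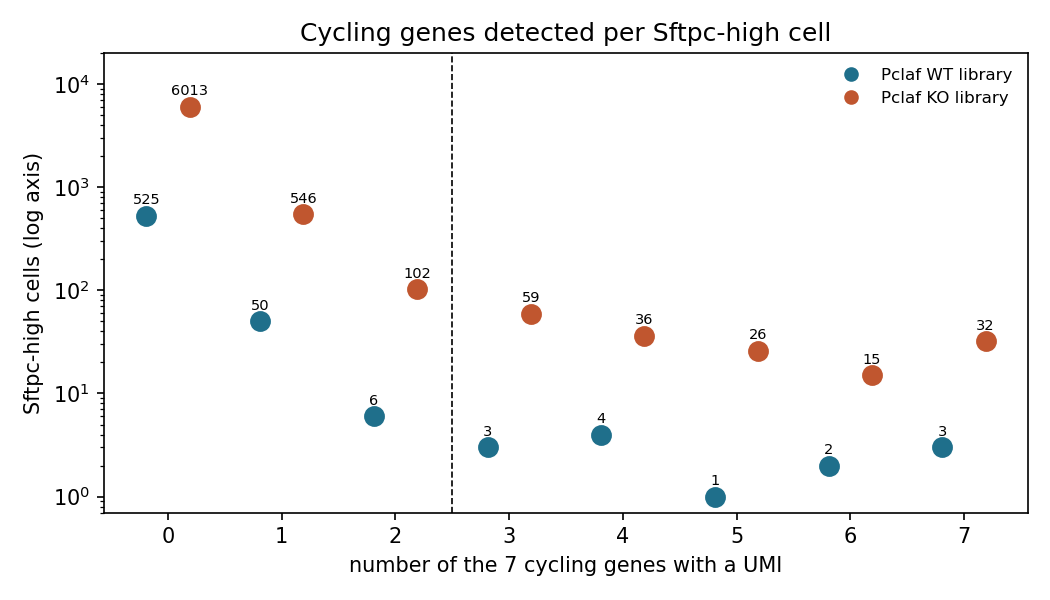
Number of Sftpc-high cells (log axis) with 0 to 7 of the 7 cycling genes detected, in the Pclaf WT library (blue) and in the library labelled Pclaf KO (orange); the dashed line is the threshold of the rule. Cells with no gene were the most frequent in both libraries, at 525 and 6013, and 3 and 32 cells had all 7.

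Many cells of the WT library carried immune or endothelial markers, despite the sort. Of its 30187 kept barcodes, 10354 had Ptprc and 3 or more of 11 immune markers and 8391 had Pecam1 and 3 or more of 8 endothelial markers, against 443 and 425 of 15637 in the KO-labelled library. Most of its cycling cells were not alveolar either. The WT library held 833 barcodes with 3 or more of the 7 genes, of which 717 also had an excluded gene and 13 met the full rule, whereas the KO-labelled library held 308, of which 65 had an excluded gene and 168 met the rule. A further 13 KO-labelled cells met it except that they had 5000 genes or more. Sftpc RNA also reached cells that should lack it. At a median depth of 6613.5 UMIs, 3 of 200 ciliated cells of the WT library (1.5%, 0.31 to 4.32) had Sftpc at 3% or more, and at 7433.5 UMIs 95 of 1190 in the KO-labelled library (7.98%, 6.51 to 9.67). The shares in immune cells were 0.995% and 12.2% and in endothelial cells 1.12% and 9.65%. The median cell of each of these kinds had Sftpc at 0.0% of UMIs in WT. In the KO-labelled library the medians were 0.112% in ciliated, 0.15% in immune and 0.195% in endothelial cells. A cell of another kind could therefore pass the Sftpc condition more often in the KO-labelled library, and the part of this in the results was not tested.

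The label of alveolar epithelial cells was checked on genes outside the rule. Epcam, the adhesion protein of the sort, was at 416 CPM (the UMIs of a gene summed over the cells of a class, per 1000000 UMIs of that class) in WT cycling cells and 325 CPM in KO-labelled ones, and Nkx2-1, the lung epithelial regulator, at 458 and 361 CPM. The AT2 genes Sftpa1, Sftpb and Slc34a2 (a phosphate carrier) were at 10940, 4276 and 2763 CPM in WT and at 14500, 4561 and 2900 CPM in KO-labelled cycling cells. Markers of 8 other kinds of cells were low with 2 exceptions. The 11 immune markers summed to 208 and 15.8 CPM, led in WT by Fcer1g at 4 UMIs, and the 8 endothelial markers to 222 and 37.1 CPM, led by Egfl7. The 8 mesenchymal markers summed to 583 and 187 CPM, of which Mgp, a matrix protein, gave 541 and 143 CPM. The 4 club cell markers summed to 597 CPM in WT and to 13270 CPM in the KO-labelled cycling cells, where Scgb1a1, the club cell secretoglobin, gave 12106 CPM. The 6 ciliated markers summed to 125 and 137 CPM. Goblet, basal and mesothelial markers were at 0 UMIs in the 13 WT cells, which allows up to 41.6 CPM each, and at 15.2, 25.5 and 1.82 CPM in the KO-labelled cells, where 1 cell held all UMIs of Krt5 and Krt17.

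The cycling cells were the deeper ones. Their median was 5416 UMIs and 2320 genes in WT and 9586.5 UMIs and 3074.5 genes in the KO-labelled library, against 4602 UMIs and 1768 genes and 6737 UMIs and 2155 genes in non-cycling cells. With each cell thinned to 2000 UMIs, the cycling cells still had more genes, a median of 1082 against 971 in WT (13 and 432 cells, with 0 and 93 shallower cells left out) and 1012.5 against 895 in the KO-labelled library (164 and 5720 cells, with 4 and 293 left out). A doublet caller marked 0 WT and 1 KO-labelled cycling cell, but it marked 8.12% of WT and 2.77% of KO-labelled cells of any kind where 24.2% and 12.8% were expected from their number, so that unmarked doublets may remain. The libraries shared 163 barcodes, among them those of 2 cycling cells.

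Cycling cells made up 2 to 3% of Sftpc-high cells in both libraries as counted. The order of the libraries turned when cells were thinned and in some other settings. They were 13 of 594 cells in WT, or 2.19% (1.17 to 3.71, Clopper-Pearson), and 168 of 6829 in the KO-labelled library, or 2.46% (2.11 to 2.86). The difference, KO-labelled minus WT, was 0.272 percentage points with an interval from -1.29 to 1.26. Since a deeper cell shows more of the 7 genes, the rule was also applied with every cell thinned to 2000 UMIs. The shares were then 1.36% in WT (8 of 588) and 1.02% in the KO-labelled library (70 of 6871), a difference of -0.342 percentage points with an interval from -1.66 to 0.379. At 1000 UMIs they were 1.29% in WT (9 of 697) and 0.667% in the KO-labelled library (48 of 7201), a difference of -0.625 percentage points with an interval from -1.78 to 0.0229. All 3 intervals held 0. They cover counting error within 1 library per genotype and are no test between genotypes. Without thinning, WT also had the higher share with 4 of the 7 genes required (10 of 594 against 109 of 6829). The same held when cells with the excluded genes were let in (25 of 862 against 191 of 7482). It held too with a wider list of excluded genes (8 of 326 against 134 of 5672), but not with 2 genes required (19 of 594 against 270 of 6829).

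The targeted gene was read first in the cycling cells, where it is made. Pclaf had 10 UMIs in 5 of the 13 WT cells, or 139 CPM, and 180 UMIs in 72 of the 168 KO-labelled cells, or 109 CPM. The log2 ratio, KO-labelled over WT, was -0.34 (-1.26 to 0.74) and turned to 0.04 with TMM factors, another scaling of the sums. In non-cycling cells Pclaf was at 3.71 and 0.73 CPM. In cycling cells the interval of the ratio thus held 0, while in non-cycling cells, on 9 and 31 UMIs, Pclaf was lower in the KO-labelled library (log2 -2.35, -3.45 to -1.09). How the deletion alters the transcript is not given in the labels, and reads at the 3' end may lie outside the deleted part, in which case Pclaf counts check nothing about the label. Clic4, a chloride channel protein that the study follows downstream of Pclaf, had 194 CPM in WT cycling cells, from 14 UMIs in 8 of the 13. In KO-labelled cycling cells it was at 104 CPM (log2 -0.90, -1.68 to 0.01), and the ratio was -0.52 with TMM factors. Clic4 differed the same way in non-cycling cells, at 186 and 117 CPM (log2 -0.66).

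The cells carried many more genes at a higher than at a lower level than non-cycling cells. Of 5974 genes with enough counts, 309 (5.17%) were at least 2-fold higher in the cycling cells of both libraries and 40 (0.67%) at least 2-fold lower, so 88.5% of the calls were higher. With TMM factors the split was 186 higher and 105 lower (63.9% higher), and without surfactant, mitochondrial and ribosomal protein genes in the totals it was 82.5% higher. TMM factors moved all ratios of this comparison by -0.47 in WT and -0.24 in the KO-labelled library on the log2 scale, and the median over all genes tested was 0.12 and 0.20. The selection on 7 mitosis genes makes their partners differ by construction, so these values describe the cells and test nothing.

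The 7 genes of the rule were by definition at 0 in non-cycling cells. In cycling cells Mki67, which coats mitotic chromosomes, reached 541 CPM in WT cells and 474 CPM in KO-labelled cells, and Top2a, which untangles DNA, at 666 and 422 CPM. Ube2c, an enzyme that tags proteins for the exit from mitosis, was at 708 and 312 CPM. Prc1, which bundles the central spindle, was at 292 and 245 CPM, and Cdk1, the kinase that starts mitosis, at 333 and 222 CPM. Outside the rule the highest were Cenpa, the centromeric histone, with log2 ratios of 7.15 and 7.36, Tpx2, a spindle assembly factor, with 6.84 and 8.18, and the long noncoding RNA Lockd with 7.75 and 6.81.

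The mitosis list had the highest ratio of the lists outside the rule. Its 53 genes, none of them in the rule, summed to 6955 CPM in WT and 4296 CPM in KO-labelled cycling cells, against 217 and 191 CPM in non-cycling cells, which gives log2 ratios of 5.00 (4.82 to 5.18) and 4.50 (4.45 to 4.54). Of the 15 members with enough counts in both libraries, 14 were called higher and 0 lower. Cks2, a subunit that binds Cdk1, was at 416 and 238 CPM against 7.42 and 4.96 CPM. Spc24, of the kinetochore, was at 236 and 219 CPM against 8.24 and 7.61 CPM, and Smc4, of the condensin complex, was at 236 and 219 CPM against 23.5 and 28.9 CPM.

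The replication list had like sums in both libraries. Its 41 genes summed to 2402 CPM in WT and 2622 CPM in KO-labelled cycling cells, against 306 and 277 CPM in non-cycling cells, with log2 ratios of 2.97 (2.73 to 3.21) and 3.24 (3.19 to 3.29). Of 16 members with enough counts, 15 were called higher and 0 lower. Atad2, a chromatin factor of newly made DNA, was at 194 and 222 CPM against 18.1 and 14.9 CPM. Tyms, which makes thymidylate, was at 69.4 and 152 CPM against 12.4 and 12.3 CPM, and Dut, which clears dUTP, was at 167 and 144 CPM against 15.2 and 16.8 CPM. Summed over cells, the non-cycling class thus held low counts of these genes, all of them above 0. Cell by cell, the list had medians of 206.9 CPM in WT and 215.5 CPM in KO-labelled non-cycling cells, but reached 5794 and 5099 CPM. These highest values lie above the medians of the cycling cells, at 981 and 1447 CPM. The non-cycling class was therefore not free of cells rich in replication RNA.

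Chromatin and microtubule proteins made up the largest part of the RNA that set the cycling cells apart among the lists with a role in division. The 22 genes summed to 18080 and 13310 CPM, against 3197 and 3028 CPM, with log2 ratios of 2.5 (2.41 to 2.58) and 2.14 (2.12 to 2.16), and all 21 with enough counts were called higher. Ptma, prothymosin, had 3665 CPM in WT cells and 3125 CPM in KO-labelled cells, against 1093 and 1058 CPM. H2afz, a histone variant, was at 3401 and 2054 CPM against 275 and 210 CPM, and Stmn1, which takes microtubules apart, was at 1860 and 1356 CPM against 160 and 142 CPM. The tubulin gene Tubb5 had log2 ratios of 3.91 and 3.47, and the chromatin protein gene Hmgb2 3.53 and 2.99.

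Regulators of the cycle were read from 2 lists. Of 22 genes of the RB, E2F and DREAM list, 8 had enough counts in both libraries, and 2 of these were called higher, Rbbp4, a histone-binding subunit, and Rbl1, which encodes the pocket protein p107. Rbbp4 had log2 ratios of 1.03 in WT and 1.09 in the KO-labelled library, which were 0.56 and 0.85 with TMM factors and so under 2-fold. The list summed to 736 and 815 CPM against 439 and 380 CPM, with log2 ratios of 0.75 (0.32 to 1.14) and 1.10 (1.02 to 1.18). In the KO-labelled library alone, where 710 of 6535 genes (10.9%) were called higher and 100 (1.53%) lower, 10 of 16 members were higher and 0 lower. The activating E2f1 was at 25.5 CPM against 1.17 CPM there, and Foxm1, which drives mitosis genes, was at 40.7 CPM against 0.52 CPM. The DREAM subunits E2f4 and E2f5 were at 18.2 and 12.1 CPM there, against 13.5 and 11.1 CPM in non-cycling cells. Among 13 D-type cyclins, CDKs and CDK inhibitors, Ccnd1 (cyclin D1) was the most abundant, at 389 and 390 CPM against 246 and 236 CPM. The list sum had a log2 ratio of 0.01 (-0.42 to 0.41) in WT, which turned to -0.46 with TMM factors, and of 0.48 (0.40 to 0.55) in the KO-labelled library. Of the 7 members tested in both, Cdkn2d, an inhibitor of CDK4, was called higher and Ccnd2 lower, on 2 and 1 UMIs in WT.

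**Figure D2:**
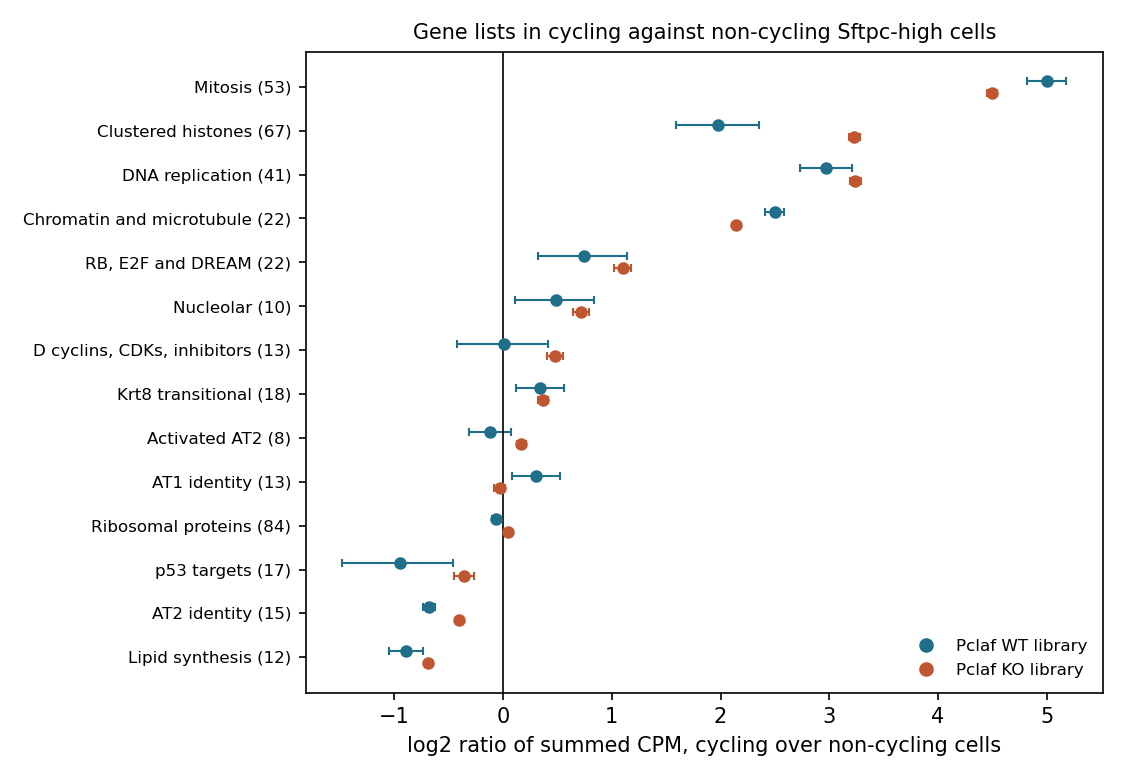
Log2 ratio of the summed CPM of 14 gene lists (number of listed genes in parentheses) in cycling over non-cycling Sftpc-high cells, for the Pclaf WT library (blue) and the library labelled Pclaf KO (orange); bars are exact 95% intervals for counting error. The mitosis list stood highest at 5.00 and 4.50 and the lipid synthesis list lowest in the KO-labelled library at -0.69; with TMM factors the WT points lie 0.47 lower and the KO-labelled points 0.24 lower.

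Genes of surfactant and AT2 identity were lower in cycling cells as a sum, and no single one reached 2-fold in both libraries. The 15 genes of the list, which leaves out Sftpc, summed to 43150 CPM in WT and 54680 CPM in KO-labelled cycling cells, against 69180 and 72290 CPM in non-cycling cells. The log2 ratios were -0.68 (-0.73 to -0.63) and -0.40 (-0.41 to -0.39), and they lay between -1.30 and -0.53 and between -0.65 and -0.33 over the alternatives. Cell by cell, the list had a median of 39330 CPM in the 13 WT cycling cells (22990 to 66200) against 66600 CPM in non-cycling cells, and of 53370 CPM in the 168 KO-labelled cells (14030 to 108400) against 71770 CPM. The ranges overlapped widely. Sftpc itself, used in the rule, had a median of 9.58% of UMIs in WT and 12.1% in KO-labelled cycling cells, against 13.7% and 16.3%.

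Members of the AT2 list did not move together. Lyz2, the lysozyme of mouse AT2 cells, was at 9774 and 14415 CPM against 20180 and 21681 CPM (log2 -1.05 and -0.59). Cxcl15, the lung chemokine lungkine, was at 2430 and 4543 CPM against 6716 and 6747 CPM (log2 -1.47 and -0.57). Sftpa1 (log2 -0.63 and -0.40), Sftpb (-0.68 and -0.53) and Abca3, the lipid carrier of the lamellar body (-0.87 and -0.39), were lower in both libraries. Lamp3, a membrane protein of the lamellar body, was within 0.2 log2 units at -0.09 and -0.18. Ctsh, a protease that trims surfactant proteins, had ratios of 0.36 and 0.31, of which the WT value is smaller than the shift that TMM factors give. Sftpd, a collectin of surfactant, was at 4387 and 5213 CPM against 4173 and 4400 CPM (log2 0.07 and 0.24), and the WT value turned to -0.40 with TMM factors.

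Genes of fatty acid and sterol synthesis, which feed surfactant lipid, were also lower as a sum. The 12 genes summed to 4748 and 5493 CPM against 8792 and 8839 CPM, with log2 ratios of -0.89 (-1.05 to -0.73) and -0.69 (-0.72 to -0.66). Of 12 tested, 0 were called higher and 1 lower in both libraries, Acoxl, an acyl-CoA oxidase-like protein, at 97.2 and 245 CPM against 441 and 577 CPM. Scd1, which desaturates fatty acids, was at 2693 and 2886 CPM against 5004 and 4738 CPM. Elovl1, which lengthens fatty acids, had 180 CPM in WT cells and 525 CPM in KO-labelled cells, against 848 and 1000 CPM.

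The transitional state, through which AT2 cells pass on the way to AT1 cells, is marked by keratins and was read from 18 genes. Krt8 was called higher in both libraries, at 666 and 474 CPM against 263 and 228 CPM (log2 1.34, 0.89 to 1.76, and 1.05, 0.95 to 1.16), but it did not reach 2-fold with TMM factors (0.87 and 0.81). Krt18, its partner, had log2 ratios of 0.77 and 0.71, and Anxa1, an annexin, 0.74 and 0.88. Of 13 list members tested, 2 were called higher (Krt8 and Sfn, a 14-3-3 protein) and 1 lower, Nupr1, a stress-induced chromatin protein, at 27.8 and 185 CPM against 293 and 381 CPM. The WT value of Nupr1 in cycling cells rests on very few UMIs. The 18 listed genes summed to log2 ratios of 0.34 (0.12 to 0.56) and 0.37 (0.32 to 0.41), of which the WT value turned to -0.13 with TMM factors. Cell by cell, the list had medians of 2497 CPM in WT and 1833 CPM in KO-labelled cycling cells, against 1282 and 1240 CPM in non-cycling cells.

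AT1 and activated AT2 genes differed little. The 13 AT1 genes summed to 2471 and 1906 CPM against 1998 and 1946 CPM, with log2 ratios of 0.31 (0.08 to 0.52) in WT, which turned to -0.16 with TMM factors, and -0.03 (-0.08 to 0.02) in the KO-labelled library. Ager, the receptor RAGE, was at 1305 and 988 CPM against 927 and 975 CPM. No member of 8 tested was called in either direction. The 8 genes of the activated AT2 state gave -0.12 (-0.32 to 0.07) and 0.17 (0.13 to 0.21), the latter -0.07 with TMM factors, and Lcn2, its lipocalin marker, was at 1722 and 2047 CPM against 1871 and 1629 CPM.

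**Figure D3:**
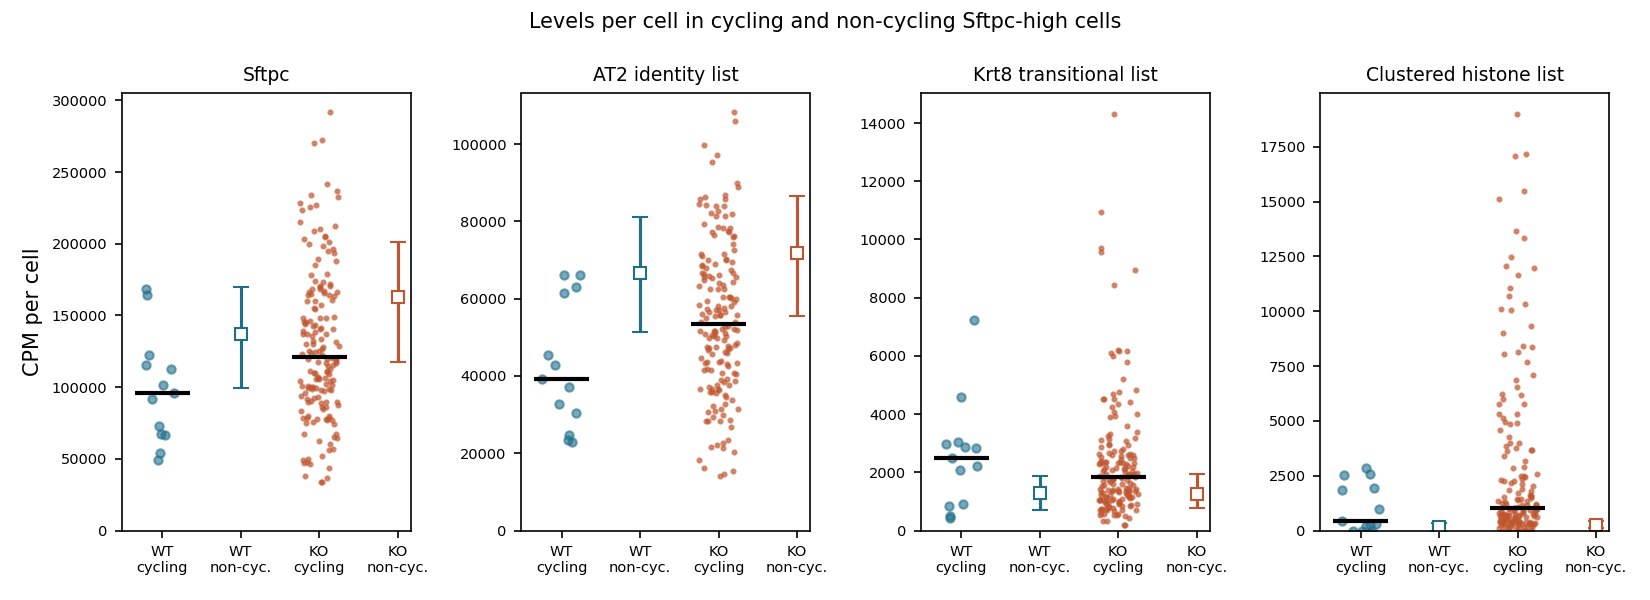
CPM per cell of Sftpc and of the summed AT2 identity, Krt8 transitional and clustered histone lists; each point is a cycling cell (13 in the Pclaf WT library, blue, and 168 in the library labelled Pclaf KO, orange), black lines are their medians, and open squares with bars are the median and quartiles of non-cycling cells. The AT2 list had medians of 39330 and 53370 CPM in cycling cells against 66600 and 71770 CPM, and the histone list was spread from 0 to 18980 CPM in the KO-labelled cells.

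Targets of p53, which restrain division after DNA damage, were lower as a sum at 472 and 618 CPM against 909 and 795 CPM (log2 -0.95, -1.48 to -0.46, and -0.36, -0.45 to -0.27), with 0 of 10 tested called. Cdkn1a, the CDK inhibitor p21, had 3 UMIs in the WT cycling cells (41.6 CPM against 157 CPM) and was at 114 CPM against 138 CPM in the KO-labelled library. Nucleolar genes summed to log2 ratios of 0.48 (0.11 to 0.84) and 0.72 (0.65 to 0.79), with 2 of 6 called higher, the box C/D and H/ACA particle genes Nop58 and Nhp2. With TMM factors the nucleolar sums were 0.02 in WT and 0.48 in the KO-labelled library. Ribosomal protein genes had ratios of -0.06 and 0.04 and 0 calls among 81, the latter -0.20 with TMM factors. Mitochondrial transcripts had ratios of -0.11 and -0.24 and 0 calls among 13. The 8 general epithelial genes gave 0.61 (0.42 to 0.81) in WT and 0.22 (0.17 to 0.27) in the KO-labelled library, the latter -0.02 with TMM factors, with Krt8 the 1 member of 8 called higher. The 12 genes of Clic4 and the TGF-beta pathway gave 0.21 (-0.23 to 0.61) and 0.16 (0.06 to 0.26), both of which turned negative with TMM factors, with 0 of 8 called. As a sum the 6 nuclear RNAs were lower, at -1.02 and -0.63, with Malat1 at 5997 and 8387 CPM against 12957 and 14084 CPM. Xist, a member of this list, went the other way, at 0.19 in WT and 1.215 in the KO-labelled library. Its WT value turned to -0.28 with TMM factors.

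The 10 lowest genes of cycling cells were a mixed set. They were 9530026P05Rik, Sult1a1, Tcp11l2, Pmvk, Aox3, Kdm7a, Ddx3y, Hspa1b, Crebrf and Fosb. The noncoding 9530026P05Rik was at 27.8 and 66.8 CPM against 238 and 248 CPM, and Aox3, an aldehyde oxidase, at 41.6 and 106 CPM against 255 and 297 CPM. Hspa1b, a heat shock protein of the HSP70 family, was at 41.6 and 68.0 CPM against 322 and 184 CPM. Fosb, an immediate early gene that cell dissociation also raises, had 0 UMIs in the WT cells against 456 in non-cycling cells, at least 4.51-fold lower with the floor of 3 UMIs, and was at 41.3 CPM against 102 CPM in the KO-labelled library. In the WT cycling cells these 10 genes had between 0 and 4 UMIs each, so their place in the list rests on the KO-labelled library.

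The cycling cells were then divided by phase. A cell was called S-leaning when it had more UMIs of Mcm2 to Mcm7 and Pcna than of Cdc20 and Ccnb1, and G2/M-leaning when it had fewer. In WT, 5 cells were S-leaning, 3 G2/M-leaning and 5 undecided. In the KO-labelled library 76 were S-leaning, 71 G2/M-leaning and 21 undecided, 14 of them without a UMI of the 9 genes. The S-leaning share of decided cells was 62.5% in WT (5 of 8, 24.5 to 91.5) and 51.7% in the KO-labelled library (76 of 147, 43.3 to 60.0), a difference of -10.8 percentage points with an interval from -35.9 to 22.1. With cycling cells thinned to 2000 UMIs, 4 of 7 (57.1%) and 67 of 111 (60.4%) leaned to S. The call depended on the genes chosen: by the replication against the mitosis list, each divided by its mean over cycling cells, 2 of 13 WT and 70 of 168 KO-labelled cells leaned to S, while 61 of the 76 S-leaning and 68 of the 71 G2/M-leaning KO-labelled cells kept their call. In WT, 2 of 5 S-leaning and 3 of 3 G2/M-leaning cells did. Droplets also hold free RNA, whose part in these calls was not tested.

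Lists not used in the call followed it in the KO-labelled library, which had the cells to compare. The comparison covered 7607 genes, of which 517 (6.80%) were at least 2-fold higher in S-leaning and 352 (4.63%) in G2/M-leaning cells, with a median over all genes of -0.04. Of 40 tested replication genes, 38 were higher in S-leaning cells and 0 lower, and the list sum differed by 2.04 log2 units (1.92 to 2.16). Of 53 mitosis genes, 0 were higher and 19 lower, with a sum of -0.79 (-0.86 to -0.72). The median S-leaning cell had 4867 CPM of the replication list (171 to 8764) against 716 CPM in the median G2/M-leaning cell (107 to 4644), and 2468 CPM of the mitosis list against 4545 CPM. Mitosis RNA of the list was thus present in both classes, down to 262 CPM in S-leaning and 117 CPM in G2/M-leaning cells. All of these cells had been selected on 7 other mitosis genes. In WT the sums went the same way, by 2.71 for replication and -1.27 for mitosis, on 5 and 3 cells.

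**Figure D4:**
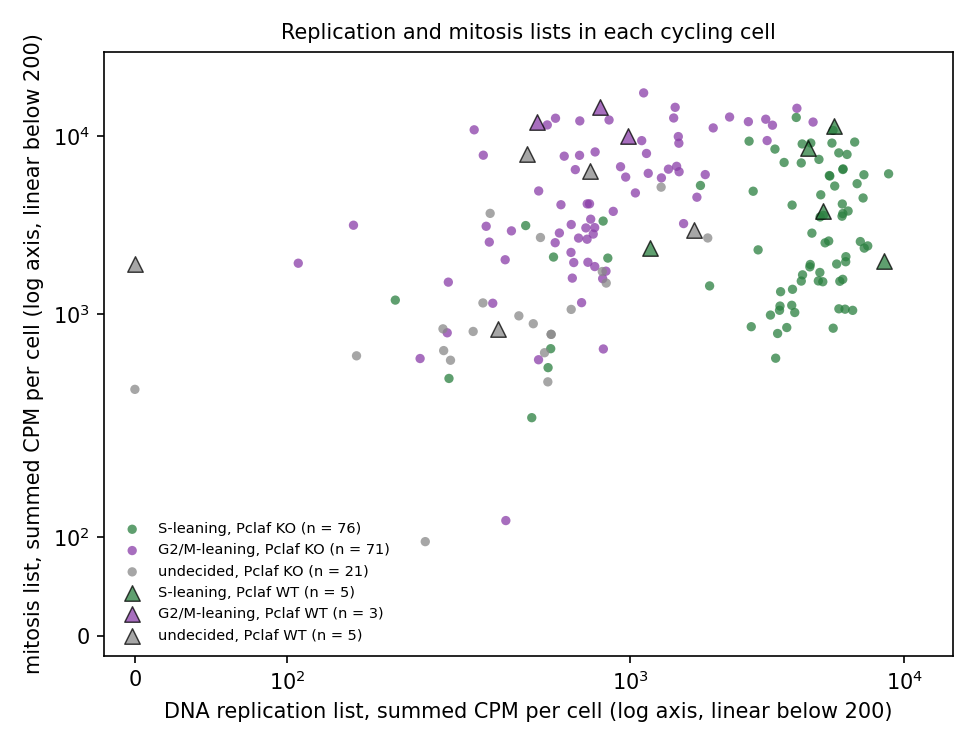
Summed CPM of the DNA replication list (x axis) and the mitosis list (y axis) in each of the 181 cycling cells, on log axes that are linear below 200; circles are cells of the library labelled Pclaf KO, triangles cells of the Pclaf WT library, and colours the phase call, which used other genes. The 76 S-leaning KO-labelled cells had a median of 4867 CPM of the replication list and the 71 G2/M-leaning cells 716 CPM.

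Single genes showed the same division. In the KO-labelled library Atad2 was at 391 CPM in S-leaning and 63.1 CPM in G2/M-leaning cells, and Uhrf1, which carries DNA methylation to the new strand, at 160 and 12.3 CPM. E2f1 was at 48.7 and 3.08 CPM and Tfdp1, the partner of E2F proteins, at 58.5 and 9.23 CPM, and 9 of 18 tested genes of the RB, E2F and DREAM list were higher in S-leaning cells and 0 lower. Pclaf was at 180 CPM in S-leaning and 47.7 CPM in G2/M-leaning cells (log2 1.92). On the other side, Cks2 was at 150 and 403 CPM, Cenpa at 42.6 and 242 CPM and Tuba1c, an alpha tubulin, at 76.7 and 282 CPM. Foxm1 was near level, at 45.1 and 43.1 CPM.

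With both libraries required, the few WT cells left 329 genes to compare, of which 0 (0.0%) were higher and 11 (3.34%) lower in S-leaning cells. The 5 highest were Cd36, Ccnd1, Dek, Hc and Tubb5, and the 5 lowest Ube2c, Cdc20, Tubb4b, Dynll1 and Arl6ip1, where Cdc20 defined the call and Ube2c chose the cells. Cd36, a fatty acid receptor, was at 792 and 357 CPM in the KO-labelled library (log2 1.15) and had a ratio of 0.96 in WT. Dek, a chromatin protein, was at 593 and 262 CPM. Tubb4b, a beta tubulin, was at 312 and 1002 CPM (log2 -1.68, and -2.82 in WT), and Dynll1, a dynein light chain, at 279 and 825 CPM (-1.56 and -1.76).

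The 2 phases also differed in AT2 RNA in the KO-labelled library. The AT2 list was 0.40 log2 units higher in S-leaning cells (0.38 to 0.42), with medians of 59140 and 47540 CPM per cell and 0 of 15 members called, and lipid synthesis genes were 0.73 higher (0.66 to 0.80), with Acoxl at 328 and 148 CPM. Lyz2 had medians of 15810 CPM in S-leaning and 10780 CPM in G2/M-leaning cells. Krt8 was the other way, with medians of 202 and 462 CPM per cell. In WT the AT2 list differed by -0.22 between 5 and 3 cells, so the direction was not shared. Y-linked RNA also differed between the phases in the KO-labelled library, by -3.14 (-5.53 to -1.40), and its part in these differences was not tested.

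Between the libraries, cycling cells were compared on 4970 genes, of which 615 (12.4%) were at least 2-fold higher and 333 (6.70%) lower in the KO-labelled cells, 64.9% of the calls being higher. With TMM factors the calls were 928 higher and 98 lower (90.4% higher), since that scaling moved all ratios by 0.38. Genes entered on 50 UMIs over both libraries, which most reached through the far larger KO-labelled sum, so the filter bears on the split. At 0.5 times that minimum 743 genes were lower, with none 1756, and in cells with Xist and no Y-linked UMI 236 were higher and 692 lower. The median over all genes tested was -0.05, and -0.11 for the same genes in non-cycling cells. The WT sum of 72031 UMIs against 1646177 limits every one of these ratios, as a gene at 14 CPM in WT had a single UMI.

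The mitosis list had a lower sum in KO-labelled cycling cells at this selection and scaling. Its sum of 4296 CPM against 6955 CPM in WT gave a log2 ratio of -0.70 (-0.83 to -0.56), beside -0.19 in non-cycling cells, and 0 of 47 tested members were called higher and 17 lower. Cdkn3, a phosphatase that acts on CDKs, was at 93.5 against 292 CPM (log2 -1.64), Cenpa at 123 against 292 CPM (-1.24) and Ect2, which sets the cleavage furrow, at 149 against 305 CPM (-1.03). The ratio of the sum was -0.32 with TMM factors, which put Cenpa at -0.86 and left Ect2 under 2-fold too, so that the 17 calls hold for the unscaled CPM. Cells entered on UMIs of at least 3 of 7 such genes, and the KO-labelled cells were deeper, with a median of 9586.5 against 5416 UMIs, so that the selection was not equal in the 2 libraries. With the rule applied at 2000 UMIs the ratio of the sum was -0.41. It was -0.08 when cells with Ptprc, Pecam1 or Col1a2 were let in, which took the WT cells from 13 to 25. The replication sum was close in both libraries: its value of 2622 against 2402 CPM gave 0.13 (-0.09 to 0.35).

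Clustered histone genes were higher as a sum in KO-labelled cycling cells. The 67 genes summed to 2937 CPM against 916 CPM in WT (log2 1.68, 1.33 to 2.05), while in non-cycling cells the ratio was 0.42. The median over members was 0.81, and 11 of 17 tested were called higher and 0 lower. The median cycling cell had 1048 CPM in the KO-labelled library and 446 CPM in WT. In S-leaning cells the medians went the other way, at 1214 and 1917 CPM, and in G2/M-leaning cells they were 937 and 304 CPM. Hist1h2ap was at 629 against 83.3 CPM, from 1036 UMIs in 80 of 168 cells and 6 UMIs in 3 of 13 cells, and Hist1h1e, a linker histone, at 324 against 55.5 CPM. Against non-cycling cells the sum was higher by 1.98 (1.59 to 2.35) in WT and 3.23 (3.18 to 3.28) in the KO-labelled library, where 23 of 24 members were called higher. Most of these transcripts carry no poly(A) tail, which a 3' library depends on. In 3 WT cycling cells with an Xist and no Y-linked UMI the WT ratio turned to -0.76.

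The summed AT2 list was higher in KO-labelled than in WT cycling cells, by 0.34 log2 units (0.29 to 0.39) against 0.06 in non-cycling cells, with 0 of 15 members called. The median over its members was 0.09, and -0.012 with 4 of the 7 genes required. The summed value lay between 0.15 and 0.94 over the alternatives. The Krt8 list gave -0.05 (-0.26 to 0.18), which turned to 0.33 with TMM factors, and the AT1 list -0.37 (-0.59 to -0.15), which turned to 0.01, with 1 of 8 tested members lower, Clic5, a chloride channel protein of AT1 cells, and 0 higher. The 12 genes of Clic4 and the TGF-beta pathway had a summed ratio of -0.43 (-0.84 to 0.01). With TMM factors it was -0.05, and in non-cycling cells the unscaled ratio was -0.39. The median over members was -0.12, and 2 of 8 tested were called higher and 0 lower.

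The genes with the largest differences between the libraries were mostly rare in the 13 WT cells. Among the 8 highest were Scgb1a1, AC149090.1, H2-Q7, Hist1h2ap, Zranb2, Nupr1 and Mast4, of which 4 had 1 UMI in WT. H2-Q7, a class Ib histocompatibility gene, had 1 UMI in WT and 201 UMIs in 52.4% of the KO-labelled cells (log2 3.14, 0.64 to 8.45), and was at 30.0 CPM in KO-labelled non-cycling cells against 122 CPM in cycling ones. The 8 lowest were Blcap, Nin, Stk17b, Tmem128, Max, Akirin2, Mgp and Nceh1, with 8 to 12 UMIs in WT except Mgp. Nin, the centrosomal protein ninein, was at 26.7 against 125 CPM (log2 -2.22, -3.28 to -1.0). Mgp was at 143 against 541 CPM, with 20 of its 39 WT UMIs in 1 cell, and turned to 1.14 when cells with an excluded gene were let in.

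Scgb1a1 had a UMI in all 168 KO-labelled cycling cells, with 92.0% of its 19929 UMIs in 8 of them, and 14 UMIs in 9 of the 13 WT cells. With cells thinned to 2000 UMIs it was detected in 89.0% and 30.8% of them. The median cycling cell had 990 CPM in the KO-labelled library and 185 CPM in WT, and the median non-cycling cell 1121 and 136 CPM. Scgb1a1 made up 1% of UMIs or more in 8 KO-labelled and 0 WT cycling cells. The 4 club markers had medians of 442 CPM in WT and 1718 CPM in KO-labelled cycling cells per cell, against 2037 and 2979 CPM in non-cycling cells, so that most cycling cells of either library had less of them than the median non-cycling cell.

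Cells with Xist, the RNA that coats the inactive X of female cells, and cells with Y-linked RNA (Ddx3y, Uty, Eif2s3y and Kdm5d) were present in both libraries. The study's methods describe male mice, which the cells with Xist do not match, and the labels state no sex. In the KO-labelled library 127 of 3665 Sftpc-high cells with an Xist and no Y-linked UMI were cycling, or 3.47% (2.90 to 4.11), and 11 of 1479 with a Y-linked and no Xist UMI, or 0.744% (0.372 to 1.33). With Xist and Y-linked UMIs read from cells thinned to 2000 UMIs, but cycling still called on all UMIs, the shares were 3.69% (102 of 2766) and 0.522% (4 of 767). Median depths were 7772.5 and 6451 UMIs in these classes, so the cycling shares were not compared at equal depth. In WT the shares were 1.90% (3 of 158, 0.393 to 5.45) and 1.52% (3 of 197, 0.315 to 4.39). Xist was at 1046 CPM in KO-labelled cycling against 450 CPM in non-cycling cells, and the 4 Y-linked genes summed to 16.4 against 72.9 CPM. Whether the cells of each kind came from different animals is not given in the labels, so animal and genotype cannot be told apart in any comparison of the 2 libraries.

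**Figure D5:**
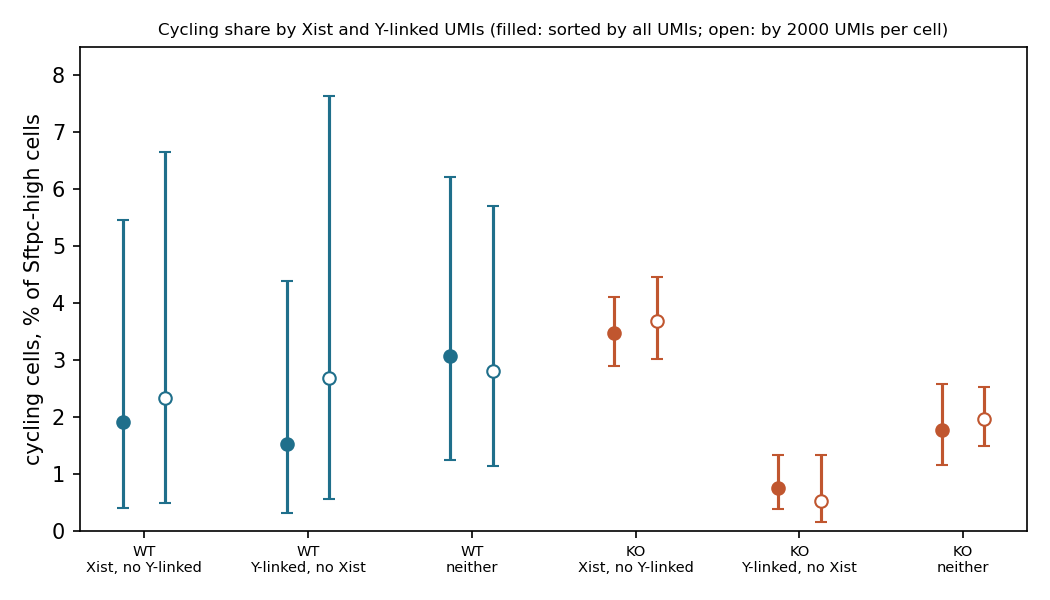
Cycling cells as a percentage of Sftpc-high cells with an Xist and no Y-linked UMI, a Y-linked and no Xist UMI, or neither, in the Pclaf WT library (blue) and the library labelled Pclaf KO (orange); filled points have Xist and Y-linked UMIs read from all UMIs, open points from 2000 UMIs per cell, with cycling called on all UMIs in both, and bars are exact 95% binomial intervals. The share was 3.47% against 0.744% in the KO-labelled library, and the WT intervals overlap throughout.

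Within the KO-labelled cells with an Xist and no Y-linked UMI, the S-leaning share was 61.3%, against 10.0% (1 of 10) among those with a Y-linked and no Xist UMI. Restricted to Xist cells in both libraries, which left 3 WT cycling cells, the mitosis list still differed by -0.62 between the libraries and the AT2 list by 0.94.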

How the data were processed

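Lung cells sorted as epithelial, in 1 Pclaf WT and 1 Pclaf KO library, were measured by single-cell RNA sequencing of 3' ends. For each barcode the deposited matrices hold unnormalized UMI counts of 31053 genes, 98171818 UMIs in WT and 111267567 in the KO-labelled library. The submitters' notes name Cell Ranger 3.1.0, STAR and mouse build GRCm38 (mm10), while the matrix headers name Cell Ranger 5.0.0. Barcodes with more than 200 and fewer than 5000 genes and under 20% mitochondrial UMIs were kept. UMIs were summed per class and library and divided by the summed total (CPM). Ratios of CPM are given on a log2 scale, with 0.5 UMIs added to both sums where one was 0, and intervals are exact at 95% (Poisson, Clopper-Pearson or conditional binomial), except Newcombe intervals for differences of shares. A gene entered the cycling comparison with 20 UMIs in all and 20 CPM in either class of each library used, the phase comparison with 20 UMIs and that between libraries with 50. With 1 library per genotype no test was made, and a call means a 2-fold difference.

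Named genes were drawn from the genes of the rule, Pclaf, Clic4, the 3 most abundant members of each list and members past 2-fold, and the 10, 5 or 8 most extreme genes of each comparison. E2f4, E2f5, Sftpb, Slc34a2, Lamp3, Abca3 and Ctsh were named after their values were seen, and not all genes that these choices would name are reported here. The members and lists were chosen with earlier results of these data known. Doublets were called with Scrublet and kept. TMM factors came from edgeR 4.0.16 in R 4.3.3, other values from Python 3.11.15 with numpy 2.4.6, scipy 1.17.1 and pandas 2.3.3. The code was tested on simulated data. In all, 23 alternatives were run.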

Additional observations from a re-analysis of the deposited data

Results flagged for a closer look

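In the KO-labelled library, 3.47% of Sftpc-high cells with an Xist and no Y-linked UMI were cycling, a reading of X- and Y-linked RNA that the study's design does not name, against 0.744% of those with a Y-linked and no Xist UMI. The other results stood out because the WT and the KO-labelled library lay on opposite sides of 0 in the log2 ratio of cycling over non-cycling cells, and the difference between the libraries was not tested. The summed club cell markers had -3.37 (-3.84 to -2.94) in WT and 0.47 (0.45 to 0.49) in the KO-labelled library, and Scgb1a1, which gave 12106 of the 13270 CPM in KO-labelled cycling cells, had -4.43 and 0.72. Of its UMIs in KO-labelled cycling cells, 92.0% lay in 8 cells, and among the 525 WT non-cycling cells 11 had Scgb1a1 at 1% of UMIs or more. The medians per cell went the other way in both libraries, at 185 CPM in cycling and 136 CPM in non-cycling WT cells and at 990 and 1121 CPM in KO-labelled ones. Without cells at 1% or more, an alternative added after seeing the data, Scgb1a1 had -0.24 in WT and -0.17 in the KO-labelled library and the summed club markers -1.88 and -0.83, so that neither lay on opposite sides of 0. Ribosomal protein genes had -0.063 in WT and 0.044 in the KO-labelled library, and the latter turned to -0.20 with TMM factors. Nceh1, a cholesterol ester hydrolase, had 1.37 (0.39 to 2.22) on 12 WT UMIs and -0.36 (-0.71 to -0.02). Cldn18, a tight junction protein, had 0.568 (0.21 to 0.90) and -0.22 (-0.31 to -0.13).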

How the results depend on the processing

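The 13 WT cells and the single library per genotype limit all comparisons, and UMI depth limits who is called cycling. Over 23 alternatives, 5086 of 6133 values moved by less than their counting interval or, for counts of genes, by less than 1.5 times, 1043 moved further and 4 that began at 2-fold or more changed sign. Smaller values that changed sign are among the others. Alternatives with Xist, Y-linked genes or Scgb1a1 were added after seeing the data. No paired analysis was possible because each genotype had 1 library. The cause of the changes was not tested. Letting in cells with excluded genes turned the KO-labelled over WT ratio of Mgp to 1.14 and the WT cycling ratio of Btg2 to 0.53, and gave 26 genes lower in cycling cells and 402 higher in KO-labelled cells. The rule at 2000 UMIs turned the ratio of Cbr2 between libraries to -0.011, and gave a KO-labelled cycling share of 1.02%, an S-leaning share of 38.2%, 66 genes lower in cycling cells, and 267 higher and 155 lower between libraries. At 1000 UMIs these shares were 0.667% (1.29% in WT) and 34.0%. In cells with Xist and no Y-linked UMI the WT histone ratio turned to -0.76, the KO-labelled cycling share was 3.47%, the share difference 1.57 points, the S-leaning share 61.3%, and the counts 114 higher and 9 lower in cycling cells, and 236 higher and 692 lower between libraries. In cells with Y-linked and no Xist UMI the KO-labelled cycling share was 0.744% and the S-leaning shares 100% in WT and 10.0%. With 2 or 4 genes required the KO-labelled share was 3.95% or 1.60%, and 21 genes were lower in cycling cells with 2. Phase calls at 2000 UMIs gave 60.4% in the KO-labelled library, and calls by the long lists 15.4% and 41.7%. TMM factors gave 186 higher and 105 lower in cycling cells, and 928 higher and 98 lower between libraries. Halving the minimum gave 743 genes lower between libraries. With no minimum 621 were higher in cycling cells and 1756 lower between libraries.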
